A study of Mus musculus with 8 samples.

Results

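The 10 genes described here encode the main apolipoproteins of the liver and proteins that load and exchange their lipid. They were taken by symbol as Apoa1, Apoa2, Apoa4, Apob, Apoc1, Apoc2, Apoc3, Apoe, Mttp and Pltp, and all 10 were found among the 21532 genes of the deposited table. RNA-Seq was run on livers of 8 male db/db mice, an obese and diabetic strain with a mutant leptin receptor, on the background that the study's methods give as C57B/6 J. In the control group 4 mice received control, whose composition is not given in the sources used here, and 4 mice received AF1 peptide, a synthetic ERα-derived peptide joined to a TAT sequence for entry into cells. Injections of 5 mg per kg were given 2 times a week, began at 8 weeks of age and went on for 5 weeks, and each mouse gave 1 library. The comparison asks how the peptide affected liver transcripts in obese, diabetic mice, so no lean or wild-type liver stands beside either group.

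Lipoproteins are particles in which the liver sends triglyceride and cholesterol into the blood. Apolipoprotein B is the backbone of very low density lipoprotein (VLDL) and is lipidated in the endoplasmic reticulum by the microsomal triglyceride transfer protein, which Mttp encodes. Apolipoproteins A-I and A-II are the main proteins of high density lipoprotein (HDL), the C apolipoproteins move between particles and act on lipoprotein lipase and remnant clearance, and apolipoprotein E is a ligand for receptors that take remnants up. Phospholipid transfer protein, encoded by Pltp, moves phospholipid between particles in plasma.

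Values below are normalized counts, the reads of a gene scaled by 1 size factor per library, and are given in the order of replicates 1 to 4. Recovered depth was 35260283 to 45117528 reads in control libraries and 23031880 to 43978158 in AF1 peptide libraries. Mitochondrial genes took 22.6 to 34.7% of the reads in control, and 21.1, 38.2, 34.7 and 36.5% in AF1 peptide replicates 1 to 4. AF1 peptide replicate 2 had the fewest reads, which were multiplied by 1.83, against 0.82 to 1.08 in the other libraries. The library of AF1 peptide replicate 1 stood apart. Of 15989 tested genes, 1132 (7.08%) were more than 2-fold below the control mean in that mouse, where AF1 peptide replicates 2, 3 and 4 had 381, 184 and 120. All 10 hepatocyte markers were in the table, with a summed level of 2580420 to 2878510 in control, 2255550 in AF1 peptide replicate 1 and 2221380 to 2792180 in the other treated mice. The sum is mostly Alb and hides a spread within the list, since Alb and Ttr were lowest of the 8 mice in AF1 peptide replicate 1 and 7 of the 10 were highest there. Among those, Cps1 had 34576 normalized counts against 5979 to 13727 in the other mice, and Ass1 had 188675 against 35537 to 77767. The 10 Kupffer cell and macrophage markers summed to 7305 to 9119 in control, 3307 in AF1 peptide replicate 1 and 7874 to 8783 in the other treated mice, and 9 of the 10 were lowest in AF1 peptide replicate 1. Its part in the results below was not tested, and values without this mouse are given beside them. In whole liver, fewer cells of a type and less RNA per cell cannot be told apart.

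None of the 10 genes differed between the groups beyond the spread between mice. By limma on log2(normalized count + 1), 0 of the 10 had an unadjusted p under 0.05, and 0 were called by edgeR or DESeq2. A gene was called when its unadjusted p was under 0.05 and its fold change over 1.3, which held for 304 genes (1.9%) in the lower and 286 (1.79%) in the higher direction over the whole table. Of the 10 genes, 5 had a lower and 5 a higher mean log2 level with AF1 peptide, with a median log2 fold change of -0.03 against -0.01 over all tested genes. The groups overlapped for all 10 genes, where 623 tested genes (3.9%) had no overlap. Their Benjamini-Hochberg adjusted p values ran from 0.770 for Apoa4 to 0.993 for Apoe. Without AF1 peptide replicate 1, 0 of the 10 were called either, where 491 genes (3.07%) were called lower and 457 (2.86%) higher.

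**Figure D1:**
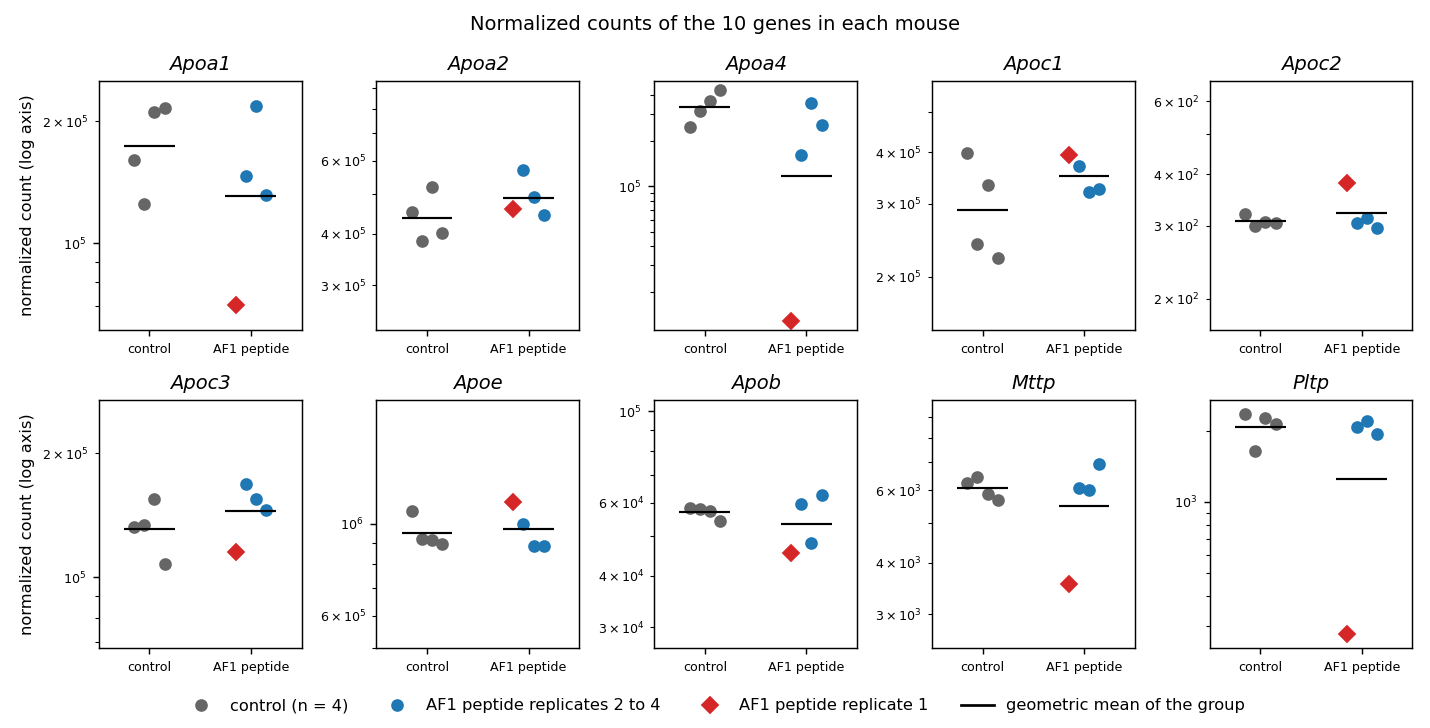
Normalized counts (log axis, arbitrary units after size factor scaling) of the 10 genes in each mouse, with control in grey, AF1 peptide replicates 2 to 4 in blue, AF1 peptide replicate 1 in red and the geometric mean of each group as a bar. Apoa4 and Pltp had 12938 and 277 normalized counts in AF1 peptide replicate 1, each apart from the other 7 mice, while Apoa2, Apoc1 and Apoe in that mouse were near the others.

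The share of all reads that fell in the 10 genes was 6.27 to 7.59% in control and 5.77 to 6.84% in AF1 peptide-treated mice. As a share of reads outside mitochondrial genes it was 8.6 to 10.3% in control and 8.63 to 10.5% with AF1 peptide. Per kilobase of exon, Apoa2 was highest in control liver, at 817142 ± 113471 normalized counts per kilobase (SD, n = 4). Apoe at 444907 ± 38919 and Apoc1 at 400991 ± 111276 came next and overlapped each other. Apoa4 at 186775 ± 43150, Apoa1 at 143876 ± 35184 and Apoc3 at 130469 ± 18948 formed the next step, and neighbours in this order also lay within their spread. Apob followed at 4089 ± 133, Mttp at 978 ± 57.2, Pltp at 820 ± 124 and Apoc2 at 379 ± 10.7, of which Mttp and Pltp were within their spread of each other. The place of Apoc2 is uncertain, because 79.5% of its exon bases also lie in exons of Gm44805 on the same strand.

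**Figure D2:**
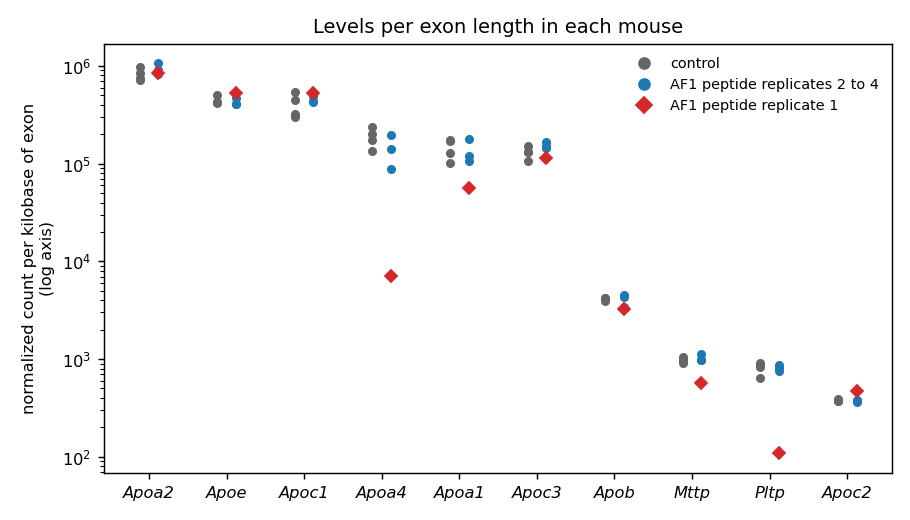
Level of each gene per kilobase of merged exon (log axis) in each of the 8 mice, ordered by the control mean, with control in grey, AF1 peptide replicates 2 to 4 in blue and AF1 peptide replicate 1 in red. In control the levels ran from 817142 for Apoa2 to 379 for Apoc2 per kilobase, and Apoa4 and Pltp in AF1 peptide replicate 1 lay apart from the other mice. The level of Apoc2 is uncertain, as most of its exon bases also lie in exons of Gm44805.

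Among the A apolipoproteins, Apoa4 had the lowest single value against its control mean. Apoa4 encodes apolipoprotein A-IV, a lipid-binding protein of gut and liver that rides on chylomicrons, VLDL and HDL. Control mice had 245619, 313590, 366923 and 429857 normalized counts, and AF1 peptide-treated mice had 12938, 160748, 354652 and 254490. AF1 peptide replicates 1 and 2 were below every control mouse, and replicates 3 and 4 were within the control range. Replicate 1 was 26.2-fold below the control mean and 12.4-fold below the lowest of the other 7 mice, and only 7 of 15989 genes were further below control in this mouse. The group means were 338997 ± 78316 and 195707 ± 145311 (SD, n = 4), and the log2 fold change was -1.50 (standard error 0.86, 95% confidence interval -3.42 to 0.41, limma adjusted p = 0.770). Without AF1 peptide replicate 1 it was -0.44 (standard error 0.32, 95% confidence interval -1.15 to 0.26, limma adjusted p = 0.655). Without AF1 peptide replicate 3 it was -2.04, and this was the only fit leaving out 1 mouse in which Apoa4 was called. On the recovered reads, where means are compared on the linear scale, the log2 fold change of Apoa4 was -0.79 by edgeR and by DESeq2. Apoa4 is also an abundant transcript of small intestine. Of 10 intestinal epithelium markers, Cdh17, Sis, Alpi, Cdx1 and Cdx2 were not in the table, Vil1 had 2.47 to 8.65 normalized counts in the 8 mice, and the 5 found summed to 9330 to 10759 in control, 5118 in AF1 peptide replicate 1 and 8680 to 10956 in the other treated mice, nearly all from Fabp2 and Lgals4. These parted, as Fabp2 had 5656 to 7333 normalized counts in control and 2524, 5036, 4720 and 4726 in treated mice and was called lower (log2 fold change -0.66, limma adjusted p = 0.763), while Lgals4 had 3057 to 4087 in control and 2558, 4537, 6198 and 3930 in treated mice. Fabp2 is also expressed in liver, and both were singled out after their values were seen. Of the exon bases of Apoa4, 34.9% lie opposite Gm47528, which is not in the table, and whether counting used the strand is not given in the sources used here.

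Apoa1 and Apoa2 encode the main proteins of HDL. Apoa1 had 160193, 124568, 210847 and 215717 normalized counts in control and 70155, 146575, 218632 and 131137 with AF1 peptide. AF1 peptide replicate 1 was the lowest of the 8 mice and 2.53-fold below the control mean, and the other treated mice had 131137 to 218632, which overlapped control. The log2 fold change of Apoa1 was -0.41 (standard error 0.36, 95% confidence interval -1.20 to 0.39, limma adjusted p = 0.826), and -0.11 (standard error 0.27) without AF1 peptide replicate 1. Apoa2 had 450736, 383856, 519693 and 400935 normalized counts in control and 459292, 570012, 491169 and 444377 with AF1 peptide, and replicate 1 lay inside the control range. Its log2 fold change was 0.17 (standard error 0.33, 95% confidence interval -0.57 to 0.90, limma adjusted p = 0.928) and 0.20 without that mouse.

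The C apolipoproteins and apolipoprotein E did not share the low values of that mouse. Apoc3, whose product inhibits lipoprotein lipase and remnant uptake, had 132247, 133931, 154992 and 108013 normalized counts in control and 115013, 168063, 154519 and 145976 with AF1 peptide. Its value in AF1 peptide replicate 1 was inside the control range, and the log2 fold change was 0.14 (standard error 0.23, 95% confidence interval -0.37 to 0.65, limma adjusted p = 0.910), and 0.25 (standard error 0.20) without that mouse. Apoc1, whose product acts on lipid transfer and remnant uptake, had 398692, 240111, 333012 and 221535 normalized counts in control and 392718, 369878, 319874 and 326101 with AF1 peptide. All 4 treated mice were inside the control range, with a coefficient of variation of 9.95% against 27.8% in control. The log2 fold change of Apoc1 was 0.28 (standard error 0.32, 95% confidence interval -0.43 to 0.98, limma adjusted p = 0.860), and 0.22 (standard error 0.28) without AF1 peptide replicate 1.

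Apoe had 1074780, 920916, 915429 and 893724 normalized counts in control and 1131000, 999972, 882534 and 883036 with AF1 peptide. Replicate 1 was the highest of the 8 mice, and AF1 peptide replicates 3 and 4 were just below the lowest control mouse. The log2 fold change of Apoe was 0.03 (standard error 0.45, 95% confidence interval -0.96 to 1.02, limma adjusted p = 0.993), and -0.04 without replicate 1. The moderated variance of limma follows the trend over expression, and for Apoe its standard error was far above the 0.10 that the gene's own variance gave. With that variance alone the interval of Apoe was -0.23 to 0.29, so a change of over 1.3-fold in either direction lay outside it. The moderated standard error was also the larger for Apoa2 (0.33 against 0.13), Apoc1 (0.32 against 0.21), Apoc3, Apob and Apoc2. It was the smaller for Apoa4 (0.86 against 1.10), Pltp (0.56 against 0.73), Apoa1 and Mttp.

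Apoc2, which encodes the activator of lipoprotein lipase, had 321, 300.4, 307 and 305 normalized counts in control and 381, 305, 313 and 297 with AF1 peptide. Replicate 1 lay above and replicate 4 just below the control range, and the log2 fold change was 0.06 (standard error 0.11, 95% confidence interval -0.18 to 0.31, limma adjusted p = 0.914), or -0.02 without that mouse. Its level is uncertain, because 79.5% of its exon bases also lie in exons of Gm44805, a read-through transcript on the same strand that is not in the table. Apoc2 had 167 to 408 reads per library, the fewest of the 10 genes except in AF1 peptide replicate 1, where Pltp had 297.

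Apob and Mttp, which act together in VLDL assembly, were steady in control. Apob had 58262, 58095, 57262 and 54273 normalized counts in control, and 45288, 59543, 47910 and 62835 with AF1 peptide, which gave means of 56973 ± 1852 and 53894 ± 8597 (SD, n = 4). AF1 peptide replicates 1 and 3 were below and replicates 2 and 4 above every control mouse. The standard deviation of log2 Apob in control was 0.05, smaller than in all but 2.35% of tested genes. The log2 fold change was -0.09 (standard error 0.17, 95% confidence interval -0.47 to 0.28, limma adjusted p = 0.917), and -0.01 without AF1 peptide replicate 1.

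Mttp had 6249, 6470, 5870 and 5687 normalized counts in control and 3547, 6077, 6006 and 6955 with AF1 peptide. AF1 peptide replicate 1 was 1.71-fold below the control mean and below every other mouse, and replicates 2 to 4 reached from inside the control range to above it. The log2 fold change of Mttp was -0.15 (standard error 0.19, 95% confidence interval -0.56 to 0.27, limma adjusted p = 0.874), and turned to 0.06 (standard error 0.10, 95% confidence interval -0.16 to 0.28) without that mouse. The ratio of Mttp to Apob was 0.103 to 0.111 in control, and 0.0783, 0.102, 0.125 and 0.111 in the treated mice.

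Pltp had 2353, 1645, 2270 and 2138 normalized counts in control and 277, 2069, 2206 and 1940 with AF1 peptide. Replicate 1 was 7.58-fold below the control mean and 5.93-fold below the lowest other mouse, and 70 tested genes were further below control there. The other 3 treated mice were inside the control range. The log2 fold change of Pltp was -0.73 (standard error 0.56, 95% confidence interval -1.98 to 0.52, limma adjusted p = 0.804). Without AF1 peptide replicate 1 it was -0.01 (standard error 0.13, 95% confidence interval -0.29 to 0.27, limma adjusted p = 0.987), and with all mice on the recovered reads it was -0.37 by edgeR. Of the exon bases of Pltp, 19.3% overlap Ctsa on the other strand, and Ctsa had 4714 ± 655 normalized counts in control and 4640 ± 513 with AF1 peptide (SD, n = 4), with 3925 in AF1 peptide replicate 1.

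**Figure D3:**
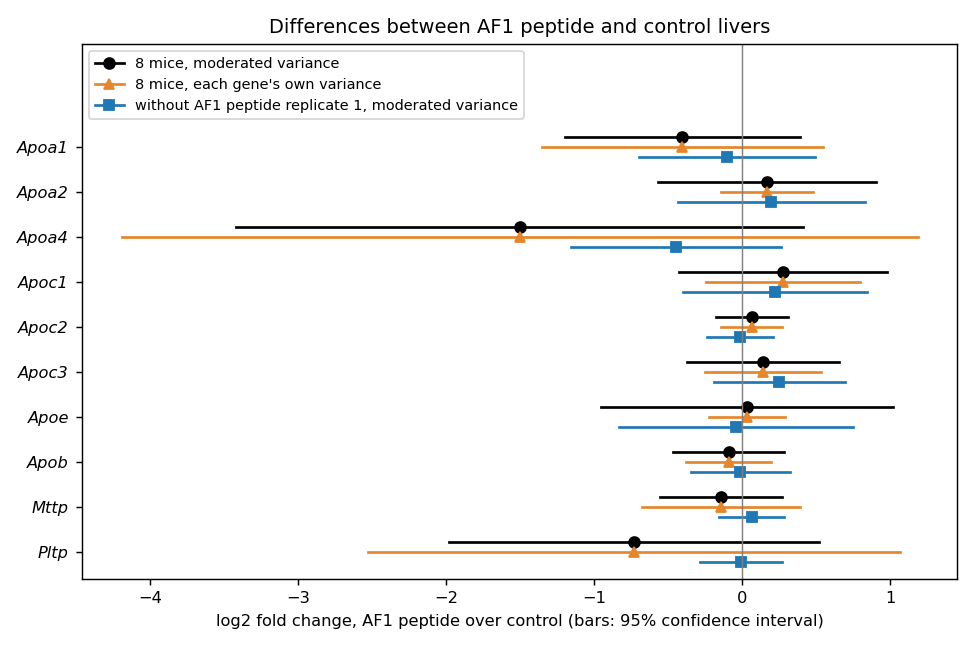
Log2 fold change of AF1 peptide over control for the 10 genes with 95% confidence intervals, from 8 mice with moderated variance (black circles), 8 mice with each gene's own variance (orange triangles), and 7 mice without AF1 peptide replicate 1 (blue squares). All intervals cover 0, and the values of Apoa4 and Pltp moved from -1.50 and -0.73 to -0.44 and -0.01 without that mouse.

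Across the 10 genes, AF1 peptide replicate 1 was the lowest of the 8 mice in 5 (Apoa1, Apoa4, Apob, Mttp and Pltp) and the highest in 2 (Apoc2 and Apoe). Over all tested genes it was lowest in 3743 (23.4%) and highest in 4144 (25.9%). It was more than 2-fold below the control mean in 3 of the 10 genes, AF1 peptide replicate 2 in 1 (Apoa4) and the other treated mice in 0, and no treated mouse was more than 2-fold above it in any of the 10.

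**Figure D4:**
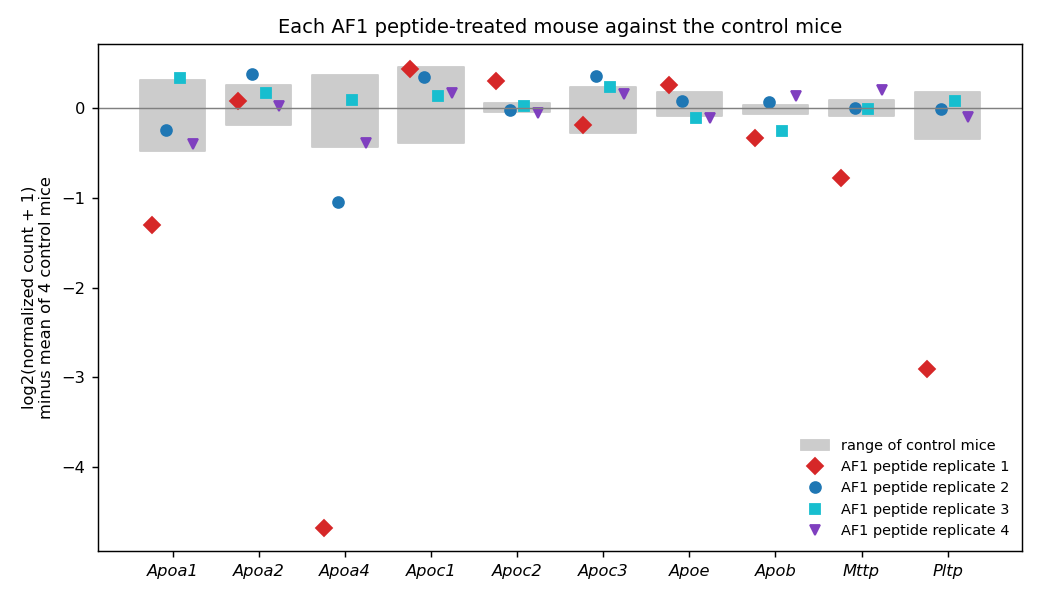
Log2(normalized count + 1) of each AF1 peptide-treated mouse minus the mean of the 4 control mice for the 10 genes, with the range of the control mice as grey boxes. Replicate 1 lay at -4.68 for Apoa4 and -1.31 for Apoa1, and replicate 2 at -1.05 for Apoa4.

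Apoa1, Apoc3, Apoa4 and Apoa5 lie next to each other in this order, and their values in AF1 peptide replicate 1 parted. Apoa5, whose product promotes triglyceride clearance, had 40990 ± 2799 normalized counts in control and 42887 ± 3465 with AF1 peptide (SD, n = 4), and 45852 in replicate 1. The ratio of Apoa4 to Apoa1 was 1.53, 2.52, 1.74 and 1.99 in control and 0.184, 1.10, 1.62 and 1.94 with AF1 peptide. AF1 peptide replicates 1 and 2 were again the mice below the control range, so Apoa4 was further below control than Apoa1 of the same cluster in both. Apoe, Apoc1, Apoc4 and Apoc2 form another cluster. Apoc4 had 35709 ± 5805 normalized counts in control and 41441 ± 5378 with AF1 peptide (SD, n = 4). The ratio of Apoc1 to Apoe was 0.347, 0.370, 0.362 and 0.369 in the treated mice, inside the control range of 0.248 to 0.371.

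The promoters of Apoa4, Apoa1, Mttp and Pltp are shown because these 4 genes had their lowest level, with a gap of more than 1.5-fold to every other mouse, in AF1 peptide replicate 1. Each window is the 250 bases before the start site in RefSeq (GRCm38.p6), which is another build than the mm39 of the study, and is written 5′ to 3′ along the gene's strand. They are chr9:46240594-46240843 (plus strand) for Apoa4, chr9:46228380-46228629 (plus strand) for Apoa1, chr3:138143419-138143668 (minus strand) for Mttp and chr2:164857709-164857958 (minus strand) for Pltp. Capitals mark matches to the motifs searched.
Apoa4: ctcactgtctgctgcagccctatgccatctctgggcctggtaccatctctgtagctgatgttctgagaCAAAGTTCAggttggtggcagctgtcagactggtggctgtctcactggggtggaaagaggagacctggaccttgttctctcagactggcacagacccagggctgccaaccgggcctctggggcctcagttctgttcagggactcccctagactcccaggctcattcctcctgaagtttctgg
Apoa1: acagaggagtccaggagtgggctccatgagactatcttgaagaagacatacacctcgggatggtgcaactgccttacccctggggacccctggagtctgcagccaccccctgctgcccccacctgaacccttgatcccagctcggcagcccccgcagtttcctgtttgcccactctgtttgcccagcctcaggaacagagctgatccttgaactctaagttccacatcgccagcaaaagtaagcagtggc
Mttp: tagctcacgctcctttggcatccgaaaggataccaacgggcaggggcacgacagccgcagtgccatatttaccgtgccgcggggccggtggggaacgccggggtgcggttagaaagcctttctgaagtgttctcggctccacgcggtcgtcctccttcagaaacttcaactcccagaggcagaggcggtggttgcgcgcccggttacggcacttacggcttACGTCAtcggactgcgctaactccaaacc
Pltp: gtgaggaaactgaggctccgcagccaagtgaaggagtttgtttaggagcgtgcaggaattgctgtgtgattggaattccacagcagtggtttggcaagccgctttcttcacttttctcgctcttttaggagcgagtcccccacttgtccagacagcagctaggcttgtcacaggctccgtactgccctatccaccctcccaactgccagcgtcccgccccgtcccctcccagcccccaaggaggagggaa
The motifs were AGGTCA of nuclear receptors, CAAAGNNCA of HNF4A, TGACGT of the cAMP response element and TGTTTAC of forkhead factors, each on both strands, and TATAAA of the TATA box on the gene's strand. They do not overlap in the windows printed. Apoa4 held CAAAGTTCA 182 bases before the start, a motif in 5.49% of all 32851 windows of this length. Mttp held ACGTCA, the other strand of TGACGT, 29 bases before the start, a motif in 6.47% of windows. Apoa1 and Pltp held none of the 5 motifs. Among the 4 other members with a window, Apob held CAAAGNNCA on the other strand 103 bases and TATAAA 60 bases before its start, and Apoc2 held AGGTCA at 115 bases. Apoa2 held TGTTTAC 77 and TATAAA 212 bases before 1 of its starts and the other strand of AGGTCA 238 bases before another, and Apoe held TATAAA 96 bases before 1 start. AGGTCA was in 14%, TGTTTAC in 3.17% and TATAAA in 7.59% of all windows. Apoc1 and Apoc3 were not matched to a window.

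For the 3 members with the smallest p values, the nearest patterns over the 8 mice were searched among 10748 genes by the root-mean-square difference of centred log2 levels. For Apoa4 these were Cidec (0.376), a lipid droplet protein, Cgref1 (0.389) and Serpina12 (0.390), the adipokine vaspin. Cidec had 243 normalized counts in AF1 peptide replicate 1 and 3542 to 4768 in the other 7 mice. For Pltp they were Limk1 (0.223), Sema3b (0.227) and Aqp8 (0.247), a water channel with 1087 normalized counts in replicate 1 and 7307 to 11746 elsewhere. For Apoa1 they were Lrmp (0.134), Soat2 (0.167), which esterifies cholesterol for lipoproteins, and Rnf39 (0.171), and Soat2 had 1356 against 2298 to 3597. All 9 genes had their lowest value in AF1 peptide replicate 1, which the search itself favours, since these 3 members were lowest in that mouse.

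Genes of the same pathways were read from 7 lists. Among other apolipoproteins, 15 of 17 were tested (Apod and Apol6 were not in the table), with 2 called higher, 0 called lower and a median log2 fold change of 0.08, which turned to -0.04 without AF1 peptide replicate 1. The called genes were Apol9a (1101 ± 187 in control and 1519 ± 400 with AF1 peptide, SD, n = 4) and Apol9b (2587 ± 514 and 3781 ± 1146), with log2 fold changes of 0.44 and 0.51 (limma adjusted p = 0.763 for both). They are close copies that can share reads, and without AF1 peptide replicate 1 neither was called, and each was called with only 2 of the 8 mice left out in turn.

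Of 24 genes listed under VLDL assembly and export, not all of them specific to it, 1 was called lower and 0 higher. Their median log2 fold change was -0.11 (-0.06 without AF1 peptide replicate 1). Cideb, a lipid droplet protein of VLDL lipidation, had 94.5 ± 27.5 normalized counts in control and 60.8 ± 12.8 with AF1 peptide (SD, n = 4), which is -0.60 on the log2 scale (standard error 0.24, limma adjusted p = 0.763). It was still called without AF1 peptide replicate 1 (-0.67), but not when control replicate 1, 2 or 4 or AF1 peptide replicate 3 or 4 was left out. Pla2g12b, which is needed for triglyceride loading of VLDL, had 1117, 1103, 1040 and 1003 normalized counts in control and 875, 880.4, 763 and 977 with AF1 peptide. All 4 treated mice were below all 4 control mice, with a log2 fold change of -0.29 (standard error 0.10, limma adjusted p = 0.763), which is under the 1.3-fold limit of a call. In this list the groups did not overlap for 1 gene lower and 2 genes higher, and over all tested genes for 623 (3.9%). The unadjusted limma p of Pla2g12b was under 0.05 whichever mouse was left out. Since Pla2g12b was named for its small p in these same mice, those fits give no separate support. Arfrp1, a GTPase of the Golgi, was higher in all 4 treated mice than in all control mice, with 506 ± 34.1 and 603 ± 20.3 normalized counts (SD, n = 4) and a log2 fold change of 0.25 (limma adjusted p = 0.763), and it was also not called. The log2 fold changes without AF1 peptide replicate 1 were -0.29 for Pla2g12b and 0.28 for Arfrp1. When libraries were scaled to equal totals, that of Arfrp1 was 0.16, and that of Pla2g12b was -0.38, which was called lower. With totals that left out mitochondrial genes they were 0.25 for Arfrp1 and -0.29 for Pla2g12b, and neither was called.

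Of 20 genes of plasma lipoprotein remodelling, 0 were called by limma, with a median of -0.02 that turned to 0.06 without AF1 peptide replicate 1. The smallest p values were those of Npc2, a sterol carrier, with a log2 fold change of -0.24 (limma adjusted p = 0.763), and of Pla2g7, the lipoprotein-associated phospholipase, with -0.78 (limma adjusted p = 0.763) and 84.9 normalized counts in AF1 peptide replicate 1 against 270.3 or more elsewhere. Without that mouse Npc2 had -0.28 and Pla2g7 -0.31. Pla2g7 is also made by macrophages, whose markers were low in the same mouse, and the part of that in its value was not tested.

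Of 18 tested receptors and uptake genes, 1 was called lower and 0 higher, with a median of -0.07 (-0.12 without AF1 peptide replicate 1), and Lrp2 and Lrp8 were below the filter. Apobr, a macrophage receptor for apolipoprotein B particles, had 70.0 ± 9.26 normalized counts in control and 46.3 ± 17.1 with AF1 peptide (SD, n = 4), a log2 fold change of -0.65 (limma adjusted p = 0.763). Without AF1 peptide replicate 1, whose Kupffer cell and macrophage markers were lowest, it was -0.57 and not called, and the same held without control replicate 1, 2 or 3 or AF1 peptide replicate 2. Stab1, a scavenger receptor of sinusoidal endothelium, was higher in all 4 treated mice (3102 ± 469 against 2532 ± 147, SD, n = 4), with a log2 fold change of 0.28 (limma adjusted p = 0.763) that is below the limit of a call. In this list the groups did not overlap for 1 gene lower and 1 gene higher, against 3.9% of all tested genes. The log2 fold change of Stab1 was 0.31 without AF1 peptide replicate 1, and 0.18 without AF1 peptide replicate 3, which had 3803 normalized counts. It was 0.19 when libraries were scaled to equal totals, and 0.28 when those totals left out mitochondrial genes.

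Of 8 cholesterol export genes, 0 were called by limma, with a median of 0.03 (0.04 without AF1 peptide replicate 1). Abcg5, a subunit of the sterol exporter into bile, had 12327 normalized counts in AF1 peptide replicate 1 and 3312 to 4921 in the other mice, and its log2 fold change went from 0.46 to 0.06 without it. Abcb4, the phospholipid exporter into bile, had 5799 in that mouse against 8036 to 10988, and its log2 fold change went from -0.17 to -0.01 without it. Of 4 genes of apolipoprotein B mRNA editing, 0 were called by limma, with a median of -0.06 (-0.05 without AF1 peptide replicate 1). Apobec1, the editing enzyme, had 535 ± 28.9 normalized counts in control and 446 ± 124 with AF1 peptide (SD, n = 4), a log2 fold change of -0.31 (limma adjusted p = 0.779), and -0.08 without AF1 peptide replicate 1, which had 266. Syncrip, an RNA-binding partner of the enzyme, had a log2 fold change of -0.07, and -0.01 without that mouse.

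Of 26 transcription factors of apolipoprotein genes, 1 was called higher and 0 lower, with a median of 0.02 that turned to -0.02 without AF1 peptide replicate 1. Foxo1, an insulin-restrained forkhead factor that acts on Mttp and Apoc3, had 525, 502, 485 and 509 normalized counts in control and 932, 658, 660 and 608 with AF1 peptide. All 4 treated mice were above all 4 control mice, with a log2 fold change of 0.48 (standard error 0.13, limma adjusted p = 0.763). In this list the groups did not overlap for 0 genes lower and 2 genes higher, against 3.9% of all tested genes. Without AF1 peptide replicate 1 the log2 fold change of Foxo1 was 0.34 (limma adjusted p = 0.452), under the 1.3-fold limit. The unadjusted limma p was under 0.05 whichever 1 mouse was left out. Since Foxo1 was named by its p in these same mice, those fits give no separate support. When libraries were scaled to equal totals instead, its log2 fold change was 0.39 and it was not called, its unadjusted p being over 0.05. When the totals left out mitochondrial genes, the log2 fold change of Foxo1 was 0.48 and it was called. Foxa2, another forkhead factor of liver, had a log2 fold change of 0.26 (limma adjusted p = 0.763), and 0.32 without AF1 peptide replicate 1. None of the genes of the 7 lists had an adjusted p under 0.05 by limma, and nor did any gene of the table, where DESeq2 gave 3 such genes and edgeR 0.

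**Figure D5:**
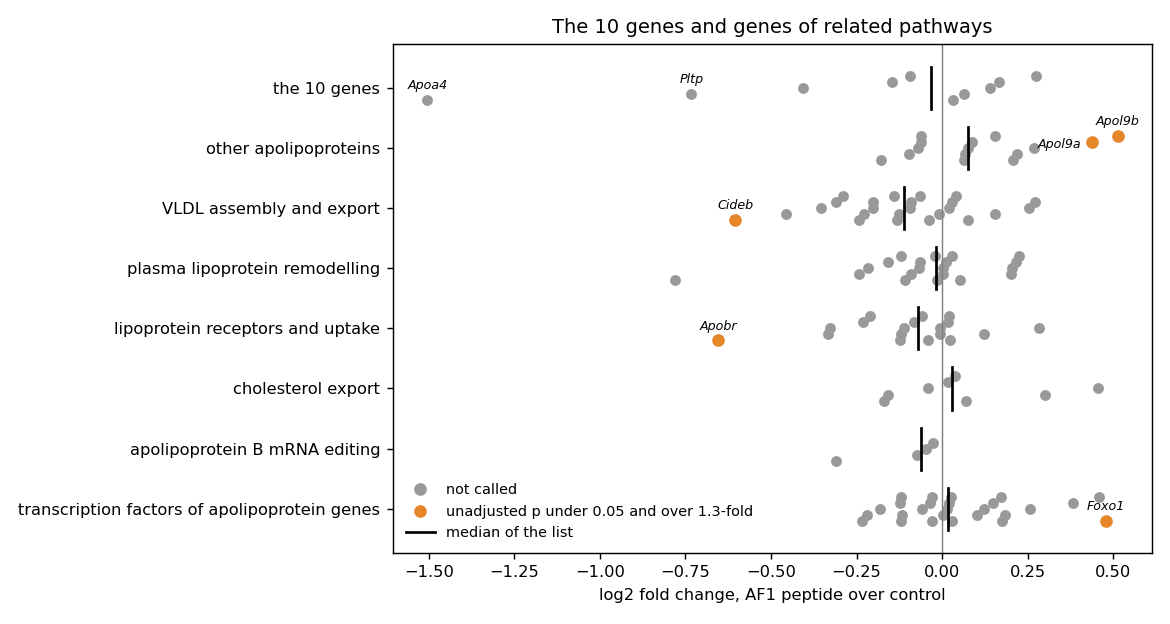
Log2 fold change of AF1 peptide over control for each tested gene of the 10 members and of 7 pathway lists (vertical scatter only separates points), with called genes in orange and the median of each list as a bar. The medians lie between -0.11 and 0.08, and the called genes are Apol9a, Apol9b, Cideb, Apobr and Foxo1.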

How the data were processed

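The mRNA of 8 livers was sequenced with stranded libraries. Per the submitters' processing notes and the study's methods, the authors trimmed reads with Trim Galore 0.6.7, aligned them with HISAT2 to mm39, used SAMtools 1.17 for the alignments and GenomicAlignments for reads per gene. The authors deposited normalized counts, a signal of whole reads divided by a size factor (100% of 172256 values came out whole within 0.02 of a read). The annotation and the use of strand in counting are not given in the sources used here. Groups and replicate numbers came from the labels.

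Here limma 3.58.1 was fitted to log2(normalized count + 1) (R 4.3.3, intensity trend, two-sided) over 15989 genes with a mean of at least 10, with Benjamini-Hochberg adjustment over all of them. edgeR 4.0.16 and DESeq2 1.42.0 were run on the recovered reads as alternatives, beside other pseudocounts, filters and scalings and each mouse left out. The scripts were tested on simulated data. Each library was 1 mouse per the labels, and no replicate pair agreed within sampling noise (chi-square per degree of freedom 16.1 to 344). Depth was 23031880 to 45117528 reads per mouse, and how far counting error adds to the spread of single genes was not measured. Genes of the lists are named when called or among the 2 smallest p values of their list. Pattern neighbours and overlapping genes were also named. The members, lists and rules were chosen with earlier results of these data known. Exon lengths, overlaps and gene order came from GENCODE M21 and RefSeq (GRCm38), promoter windows from RefSeq GRCm38.p6, and 8 of the 10 members matched a window.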

Additional observations from a re-analysis of the deposited data

Results flagged for a closer look

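In 6 of 52 groups of 4 mice, for the members and the named pathway genes, 1 mouse lay further from the others than Dixon's 95% critical value for the gap over the range, where chance gives about 1 in 20. For Pltp, AF1 peptide replicate 1 was low, with a gap over range of 0.938 in its group. For Apoe, control replicate 1 was high (0.838), at 1074780 normalized counts against 893724 to 920916. AF1 peptide replicate 1 was also high for Abcg5 (0.879) and low for Abcb4 (0.869). AF1 peptide replicate 3 was high for Stab1 (0.914), and control replicate 4 was low for Apobec1 (0.866). For Apoa4, AF1 peptide replicate 1 had a gap over range of 0.761, under the critical value, and replicate 2 was the next lowest.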

How the results depend on the processing

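The 286 genes called higher and 304 called lower became 506 and 484 with no fold threshold, 435 and 459 with no filter, and 122 and 602 when libraries were scaled to equal totals, which shifted the median log2 fold change of all genes from -0.01 to -0.10. With equal totals that left out mitochondrial genes, 273 were called higher and 270 lower, and the median was -0.01. With each gene's own variance 197 were called lower. Leaving out 1 mouse gave 198 to 457 genes higher and 173 (without control replicate 2) to 491 (without AF1 peptide replicate 1) lower. Members called lower stayed at 0, except 1 (Apoa4) without AF1 peptide replicate 3, a range of 0 to 1 over the mice left out, and 1 (Apoa4) with a block for the replicate number. The labels do not say whether mice of the same replicate number were paired. Correlations of same-numbered mice were 0.235, 0.0238, 0.216 and -0.064, with a mean of 0.103 against -0.0342 for other pairs. These few values cannot decide it. Members called higher were 0 under every alternative run. Of 200 comparisons of the members with an alternative, 193 kept direction and call, 2 passed the threshold and 5 changed sign. Those were Apoc2 (-0.026) and Apoe (-0.061) at equal totals, and, without AF1 peptide replicate 1, Apoc2 (-0.015, of a range up to 0.10 over the mice left out), Apoe (-0.044, up to 0.091) and Mttp (0.063, from -0.26). Of 300 comparisons of named pathway genes, 249 kept their side of the threshold, 42 lost it, 9 gained it and 0 changed sign. With 4 mice per group, only differences outside the intervals given can be set aside.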
